A study of Rattus norvegicus with 8 samples.

Results

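The glucocorticoid receptor gene Nr3c1 and 4 genes bound up with its action, Fkbp5, Tsc22d3, Sgk1 and Hsd11b2, were followed on 8 arrays of rat intestinal epithelium. They were found by their annotated symbols: 7 of the 31099 probe sets carry one of these 5 names, and 5 of the 14217 genes that the array could be resolved to are therefore described. There were 4 groups of 2 arrays each, all from Wistar rats of 4 month, which were female per the study's methods. The WR rats had water withheld for 12 hr per the labels (the methods also mention a longer restriction beside the array data), the DSW1200 rats drank deep sea water of 1200 hardness for 3 days, the SeW rats drank selenium water (sodium selenite, per the methods) for 3 days, and the TW rats drank tap water for 3 days. No rat carried an engineered allele as far as the labels tell, and nothing says whether both arrays of a group came from separate animals, so p-values measure only the spread between these arrays, which may be technical. WR differs from the 3 drinking groups both in water intake and in duration, and these cannot be told apart.

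Glucocorticoids are adrenal steroids that enter cells and bind the receptor encoded by Nr3c1, which waits in the cytoplasm in a complex with heat shock proteins. The bound receptor moves into the nucleus, attaches to glucocorticoid response elements and raises or lowers the transcription of many genes. In the gut, the hormone is known to act on epithelial maturation, on salt and water uptake and on local immune cells. Fkbp5 encodes a co-chaperone that lowers the hormone affinity of the receptor and is itself induced by it. Tsc22d3, also called Gilz, encodes a leucine zipper protein that carries part of the anti-inflammatory action. Sgk1 encodes a kinase that raises the surface amount of sodium channels and transporters, and it is induced by glucocorticoids, mineralocorticoids and cell shrinkage. Hsd11b2 encodes the enzyme that inactivates corticosterone in aldosterone target cells.

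Promoter sequence from RefSeq (GRCr8) matched 4 of the 5 genes in 9 windows of 300 bases, running from 250 bases before a start site to 50 after it, with 2 windows for Nr3c1, 1 for Fkbp5, 3 for Tsc22d3, 3 for Sgk1 and none listed for Hsd11b2. The 150 bases upstream of 1 start site each are shown for the 3 induced genes whose levels the results turn on. Capitals mark the letters TATAAA.
Fkbp5 (chr20:6543556-6543705, minus strand): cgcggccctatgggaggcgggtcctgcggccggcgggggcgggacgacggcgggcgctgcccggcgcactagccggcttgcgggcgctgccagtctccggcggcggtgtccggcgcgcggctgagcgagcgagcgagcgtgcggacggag
Sgk1 (chr1:24804832-24804981, minus strand): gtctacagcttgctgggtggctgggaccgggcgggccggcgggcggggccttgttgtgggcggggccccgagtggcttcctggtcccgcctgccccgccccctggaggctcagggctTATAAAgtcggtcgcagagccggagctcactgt
Tsc22d3 (chrX:109010035-109010184, minus strand): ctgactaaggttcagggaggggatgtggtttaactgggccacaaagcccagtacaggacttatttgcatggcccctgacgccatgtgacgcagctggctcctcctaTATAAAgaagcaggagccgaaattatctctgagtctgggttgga

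Among the windows shown, that of Fkbp5 was the richest in G and C, at 77% of 300 bases, against 66% for Sgk1 and 50.7% for Tsc22d3. All letters were searched on both strands. TATAAA stood 44 to 39 bases before the start in the Tsc22d3 window and 33 to 28 bases before it in the Sgk1 window shown. A second Sgk1 window held it 55 to 50 bases before its start, and 14.2% of all 33469 RefSeq promoters of this length held it on either strand. The palindromic glucocorticoid response element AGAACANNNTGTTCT was absent from all 9 windows and present in 0.0149% of all promoters. Its looser core GNACANNNTGTNC, present in 0.439%, and the single arm AGAACA, present in 20.7%, had no match in the 9 windows either, and a match to the full element counts for the core and the arm as well. These letters were searched only in the 300 bases around each start.

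The labelled tissue was borne out by its defining markers: Epcam lay between 4163 and 4502 units of normalized signal and Vil1 between 2700 and 3354 on all 8 arrays. Signal here is the deposited MAS5 intensity after quantile normalization over all arrays, and it does not allow one gene's level to be set against another's. Deposited median signals were 10.6 and 11.1 on the SeW arrays and between 4.3 and 9.0 on the other arrays, so that without normalization the median gene was 0.92 higher in SeW than in TW on the log2 scale. The ratio of 3' to 5' beta-actin probe sets, a measure of RNA integrity, was 10.9 and 13.6 on the SeW arrays and 20.6 to 32.8 on the other 6. A SeW difference and this RNA measure cannot be told apart by group. The pan-leukocyte gene Ptprc was measured on every array, at 21.6 to 53.2, as were the T cell genes Cd3g, at 55.8 to 159, and Lck, at 21.8 to 32.2. The neutrophil genes S100a8 and S100a9 and the T cell gene Cd3e had mean levels under 6.69, the lowest that was tested. In bulk samples of this kind, fewer cells of a type and less RNA per cell cannot be told apart.

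None of the members passed the test in any of the 6 comparisons (limma with Benjamini-Hochberg adjustment over 9258 genes, adjusted p threshold 0.05). Of the 5 genes, 4 passed the filter on dim genes and Hsd11b2 did not. The largest shifts relative to the spread were those of Tsc22d3, 2.17-fold lower in SeW than in WR and 1.73-fold lower in SeW than in TW, and of Sgk1, 1.53-fold higher in SeW and 1.49-fold higher in WR than in TW. The share of all tested genes past the same threshold was 0.0108% for WR against TW, 0% for DSW1200 against TW, 1.91% for SeW against TW, 2.72% for SeW against DSW1200, 1.23% for SeW against WR and 0% for DSW1200 against WR. At an unadjusted p under 0.05, Sgk1 was the only member in WR against TW, Sgk1 and Tsc22d3 in SeW against TW, and Tsc22d3 in SeW against WR, where 9.7%, 19.6% and 16.5% of all genes stood. No member did so in the other 3 comparisons, where 7.92% of all genes did in DSW1200 against TW, 20% in SeW against DSW1200 and 5.84% in DSW1200 against WR. With 2 arrays against 2, an exact permutation test of a single gene cannot go below p = 0.333.

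**Figure D1:**
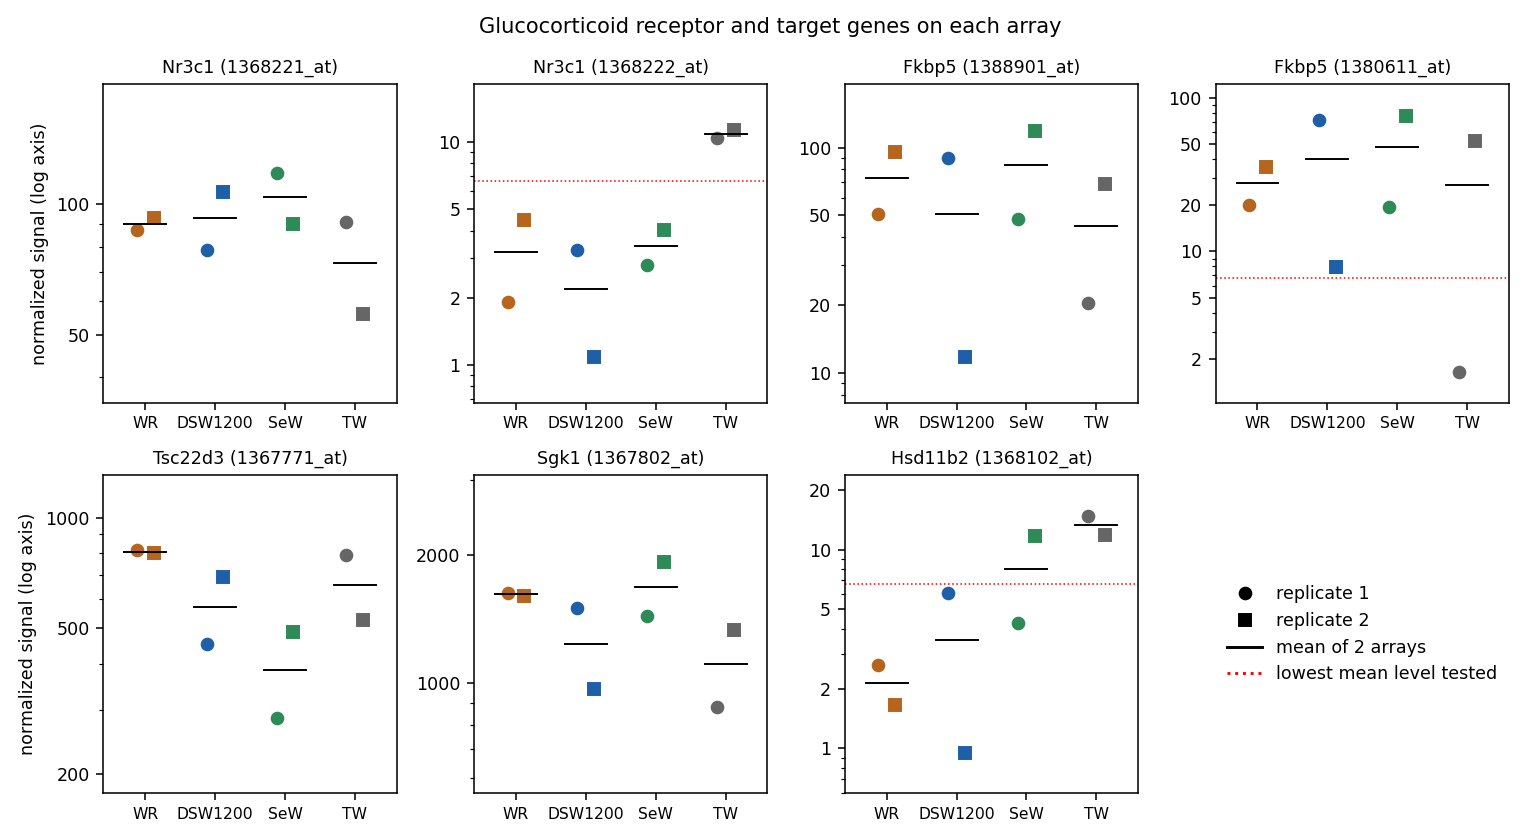
Normalized signal (log axis) of the 7 probe sets on the 8 arrays, by group, with circles for replicate 1, squares for replicate 2 and a line at the mean of 2 arrays. The dotted line marks 6.69, the lowest mean level that was tested, which the Hsd11b2 and second Nr3c1 probe sets straddle. The second Fkbp5 probe set fell under it on the first TW array, at 1.65. Sgk1 and Tsc22d3 lay close together on the 2 WR arrays and apart on the arrays of the other groups.

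The receptor gene Nr3c1 was measured on every array. Its residual SD within groups was 0.33 on the log2 scale, against a median of 0.26 over all tested genes. Of the 500 genes nearest to it in level, 83.6% had a smaller SD. The brighter Nr3c1 probe set, 1368221_at, gave 87.1 and 93.1 in WR, 78.7 and 107 in DSW1200, 118 and 90.0 in SeW, and 91.0 and 55.9 in TW. The second TW array was the lowest of the 8, and the arrays of every pair of groups overlapped. The log2 difference was 0.34 for WR against TW (SE 0.27, adjusted p = 0.69), 0.36 for DSW1200 against TW (SE 0.27, adjusted p = 0.687) and 0.53 for SeW against TW (SE 0.27, adjusted p = 0.311), all by limma. The 95% intervals allow changes between 0.832-fold and 1.91-fold in WR, 0.848-fold and 1.95-fold in DSW1200, and 0.952-fold and 2.19-fold in SeW. By mean log2 level the order was SeW, DSW1200, WR and TW, and no neighbours in that order were separated. Without the second TW array, the WR difference was -0.02.

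The second Nr3c1 probe set, 1368222_at, was dim and went the other way. It gave 1.92 and 4.46 in WR, 3.28 and 1.08 in DSW1200, 2.81 and 4.01 in SeW, and 10.4 and 11.3 in TW. Both TW arrays were above the other 6, though the probe set as a whole stayed under the level tested. Averaging both probe sets turned the direction of Nr3c1 against TW to -0.77 in WR, -1.08 in DSW1200 and -0.58 in SeW, still without a call (limma adjusted p = 0.544, 0.634 and 0.407). These averages rest on a probe set whose level is poorly measured.

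Hsd11b2, which in aldosterone target tissues such as the kidney and distal colon shields the mineralocorticoid receptor from corticosterone, was dim. By mean log2 level it stood above 43.3% of all probe sets, under the level tested. Its single probe set gave 2.64 and 1.65 in WR, 6.05 and 0.95 in DSW1200, 4.29 and 11.7 in SeW, and 14.8 and 11.9 in TW. The TW arrays were the 2 highest and both WR arrays were under 3, so WR and TW did not overlap, while DSW1200 overlapped WR and SeW. With the filter lifted, the log2 difference was -2.67 for WR against TW (SE 0.97, limma adjusted p = 0.537), -2.43 for DSW1200 against TW (adjusted p = 0.616) and -0.91 for SeW against TW (adjusted p = 0.713). At this signal the level itself is poorly measured.

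Fkbp5 was the most variable of the members. Its brighter probe set, 1388901_at, gave 50.8 and 95.9 in WR, 90.0 and 11.8 in DSW1200, 48.1 and 119 in SeW, and 20.4 and 69.0 in TW. Each group had a high and a low array, and the 2 DSW1200 arrays differed 7.61-fold, so the arrays of every pair of groups overlapped. By mean log2 level the order was SeW, WR, TW and DSW1200, with no neighbours separated. The residual SD within groups was 1.33 on the log2 scale, against a median of 0.26 over all tested genes, and 99.3% of all tested genes and 100% of the 500 nearest in level had a smaller one.

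The same arrays were low by a second probe set of Fkbp5. Probe set 1380611_at gave 20.1 and 35.5 in WR, 72.0 and 7.96 in DSW1200, 19.5 and 76.6 in SeW, and 1.65 and 52.7 in TW. The first TW array and the second DSW1200 array were lowest by both probe sets, and the 2 probe sets had r = 0.85 over the 8 arrays. Both read the same RNA on the same arrays, so this describes the arrays and says nothing of the groups. With this spread the Fkbp5 log2 difference was 0.89 in WR (SE 0.87, limma adjusted p = 0.748), -0.20 in DSW1200 (adjusted p = 0.95) and 1.01 in SeW (adjusted p = 0.567), each against TW. The SeW interval ran from 0.522-fold to 7.79-fold. By the 2-fold criterion of the study's methods, taken on means of log2 values, Fkbp5 was the 1 member past 2-fold in SeW against TW (2.02-fold, 6.8% of all genes), in SeW against DSW1200 (2.32-fold, 6.2%) and in DSW1200 against WR (2.14-fold lower, 3.31%), each time with overlapping arrays. In WR against TW no member was past it (4.8% of all genes), nor in DSW1200 against TW (4.26%), and in SeW against WR it was Tsc22d3 (5.07%). As ratios of mean signals, the Fkbp5 folds were 1.87, 1.64 and 1.44, none past 2-fold, while Tsc22d3 was 2.10-fold lower in SeW than in WR. With each array left out in turn, the Fkbp5 difference in SeW against TW ran from 0.13 to 1.89. The DSW1200 difference from TW was 1.36 by the second probe set (SE 1.42, limma adjusted p = 0.783 over all probe sets), and 1.26 by the first without the second DSW1200 array.

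Tsc22d3 was bright on all arrays. It gave 816 and 801 in WR, 454 and 688 in DSW1200, 284 and 488 in SeW, and 789 and 526 in TW. The 2 WR arrays were the highest of the 8 and the first SeW array was the lowest, and the SeW arrays lay below both WR and TW arrays without overlap. WR stood just above TW, by 801 on its lower array against 789 on the higher TW array. By mean log2 level the order was WR, TW, DSW1200 and SeW, where TW overlapped DSW1200 and DSW1200 overlapped SeW.

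Set against WR, Tsc22d3 was lower in SeW by a log2 difference of -1.12 (SE 0.29, 95% interval -1.77 to -0.47), with adjusted p = 0.113 by limma. Fitted on the 4 arrays of these groups alone, the adjusted p was 0.027 with the same difference, in a fit that called 4.82% of all genes. Over all settings tried the adjusted p ran from 0.027 to 0.979 and the difference from -2.06 to -0.44. Against TW the SeW difference was -0.79 (SE 0.29, 95% interval -1.44 to -0.14, limma adjusted p = 0.178), and with values as deposited it was 0.18, which is -0.74 relative to the median gene under that scaling. Both SeW arrays were below both TW arrays for 29.1% of all genes, and below both WR arrays for 30%. Against DSW1200 the SeW difference was -0.59 (SE 0.29, adjusted p = 0.299), and as deposited 0.34, which is -0.51 relative to the median gene. In WR against TW the difference was 0.33 (SE 0.29, adjusted p = 0.725), and in DSW1200 against TW it was -0.20 (SE 0.29, adjusted p = 0.836). DSW1200 was lower than WR by a log2 difference of -0.53 (SE 0.29, limma adjusted p = 0.899), with both arrays below, as for 18% of all genes.

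Tsc22d3 is also expressed in macrophages and lymphocytes, so marker sums are given beside it. The 12 myeloid markers summed to 818 to 828 units in WR, 653 to 717 in DSW1200, 444 to 480 in SeW and 431 to 671 in TW. Most of each sum was Lyz2, which is also among the Paneth and crypt markers. Lyz2 had 531 and 524 in WR, 440 and 414 in DSW1200, 318 and 264 in SeW, and 436 and 258 in TW. Of the 8 myeloid markers that were tested, 7 were above TW in WR, with Cd68 below it (-0.57), and 6 were below TW in SeW. In SeW against WR all 8 were below with a median log2 difference of -0.83. None of them passed the test. The 12 measured lymphocyte markers summed to 777 to 1048 in WR, 752 to 886 in DSW1200, 244 to 747 in SeW and 234 to 758 in TW. The sum moved with the plasma cell gene Jchain, which had 25.7 and 560 units in SeW and 9.81 and 397 in TW. Of the 6 lymphocyte markers tested, 5 were below TW in SeW, and all 6 were below WR in SeW with a median of -1.18. Gzmb, a granule protease of cytotoxic lymphocytes, was called there, with 35.7 and 49.0 units in SeW and 150 and 115 in WR, a difference of -1.65 (SE 0.22, limma adjusted p = 0.0194). That call was lost in 8 of 19 settings, among them without either WR array (0.133 and 0.119) or either SeW array (0.123 and 0.146), with adjusted p up to 0.979. The 13 enterocyte markers summed to 38884 to 40162 in WR, 40732 to 41807 in DSW1200, 46104 to 47527 in SeW and 42212 to 43754 in TW. In SeW, 12 of the 13 were above WR. Apoa4, an apolipoprotein of fat-absorbing enterocytes, was called there, with 2733 and 3096 units in SeW and 1901 and 1293 in WR, a difference of 0.89 (SE 0.18, limma adjusted p = 0.0494). That call was lost in 12 of 19 settings, among them without either WR array (0.0912 and 0.272), either DSW1200 array (0.0694 and 0.0698) or either SeW array (0.179 and 0.353), with adjusted p up to 0.979. WR thus had the highest sums for myeloid markers and the lowest for enterocyte markers, and SeW had the highest for enterocyte markers. Over the 8 arrays, Tsc22d3 had r = 0.15 with the mean log2 level of the 12 myeloid markers. That r was 0.57 for the lymphocyte markers and -0.59 for the enterocyte markers. It was highest, at 0.78, for the red cell list, of which 2 genes were on the array and 1 was tested. These values are a description, and the part of the cell mixtures in the Tsc22d3 levels was not tested.

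The 3 other genes of the TSC22 family give the setting for this gene. Tsc22d1, a transcriptional regulator first known as a TGF-beta-induced gene, gave 2625 and 2594 in WR, 2096 and 2192 in DSW1200, 1289 and 1155 in SeW, and 1978 and 2971 in TW. It fell in SeW against TW, with a log2 difference of -0.99 (SE 0.18, limma adjusted p = 0.0346). The call was lost in 12 of 19 alternative settings, with adjusted p up to 0.641. The settings included leaving out the second TW array (0.0665), either WR array (0.0683 and 0.0699) or either SeW array (0.128 and 0.234), and averaging all probe sets of the gene, where the difference was -0.32. Tsc22d4 gave 245 and 219 in SeW and 388 and 464 in TW, a difference of -0.87 (SE 0.19, limma adjusted p = 0.0535). With values as deposited it was 0.09, which is -0.83 relative to the median gene. Tsc22d2 gave 60.0 and 50.1 in SeW and 35.5 and 48.8 in TW, a difference of 0.40 (adjusted p = 0.465). In SeW against TW, 3 of the 4 family members were below TW without overlap (29.1% of all genes), 1 of them called (1.11% of all genes), while in WR and in DSW1200 none was called.

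Sgk1 was measured at high signal on all arrays. It gave 1630 and 1607 in WR, 1505 and 970 in DSW1200, 1436 and 1928 in SeW, and 882 and 1337 in TW. Both WR arrays and both SeW arrays were above both TW arrays, while the DSW1200 arrays overlapped those of TW. The WR arrays differed from each other by 1.01-fold, and those of the other groups by 1.34-fold to 1.55-fold. Beside this, the 5 tested Paneth and crypt markers were all above TW in WR (median 0.68) and 4 of them in SeW (median 0.89), with none past the test. The proliferation gene Mki67 had 39.6 and 57.6 units in WR, 56.2 and 40.2 in SeW, and 28.5 and 23.0 in TW. Pcna, another proliferation gene, overlapped TW in both groups, with 430 and 547 in WR, 546 and 427 in SeW, and 523 and 370 in TW. Over the 8 arrays, Sgk1 had r = 0.76 with the mean log2 level of the 9 Paneth and crypt markers on the array. Only 5 of these markers were tested, and the rest were dim but weigh equally in that mean. This r is a description, and the part of the markers in the Sgk1 levels was not tested.

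In WR against TW, Sgk1 had a log2 difference of 0.58 (SE 0.25, 95% interval 0.01 to 1.14), with adjusted p = 0.506 by limma. In SeW against TW the difference was 0.62 (SE 0.25, 95% interval 0.05 to 1.18, limma adjusted p = 0.213). Both arrays were above both TW arrays for 18.4% of all tested genes in WR and for 22.1% in SeW, so this pattern was a common one. In DSW1200 against TW the difference was 0.15 (SE 0.25, adjusted p = 0.86). SeW and WR differed by 0.04 (95% interval -0.52 to 0.60), and SeW was above DSW1200 by 0.46 (SE 0.25, adjusted p = 0.342). DSW1200 was below WR by a log2 difference of -0.42 (SE 0.25, adjusted p = 0.911), without overlap. With each array left out in turn, the difference from TW ran from 0.28 to 0.88 in WR and from 0.32 to 0.92 in SeW. By mean log2 level the order was SeW, WR, DSW1200 and TW, with WR and DSW1200 as the only neighbours whose arrays did not overlap. With values as deposited, Sgk1 passed the test in SeW against TW, with a difference of 1.49 (limma adjusted p = 0.00132). So did Nr3c1 (1.53, adjusted p = 0.0103) and Fkbp5 (1.96, adjusted p = 0.0348). Under that scaling 47.5% of all genes passed, and the median gene was 0.92 higher in SeW. Relative to that median, Sgk1 was 0.57, Nr3c1 0.61 and Fkbp5 1.04 higher in SeW than in TW, close to the normalized differences.

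**Figure D2:**
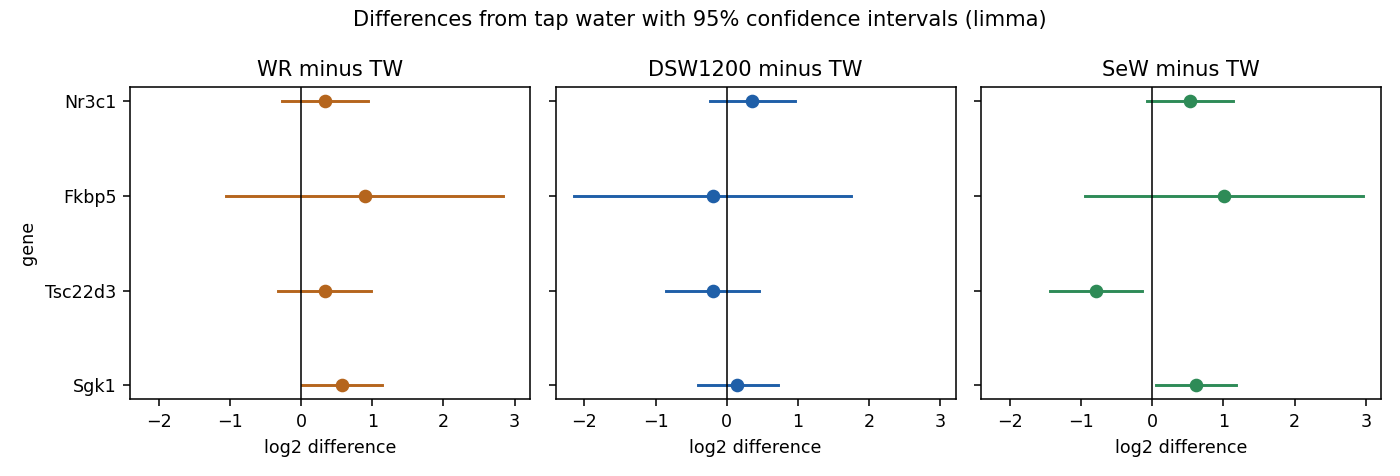
Log2 differences from TW (horizontal axis) of the 4 tested members in WR, DSW1200 and SeW, with 95% confidence intervals from limma. The intervals that leave out 0 are those of Sgk1 in WR (0.01 to 1.14) and in SeW (0.05 to 1.18) and of Tsc22d3 in SeW (-1.44 to -0.14). No difference passed the adjusted threshold, and the Fkbp5 intervals were the widest.

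Fkbp5 and Sgk1 moved together from array to array. Over the 8 arrays their log2 values had a Pearson r of 0.90 and a Spearman rho of 0.79, as a description of arrays that share their scaling. Without the 2 arrays farthest from the median Fkbp5 level, the second of DSW1200 and the first of TW, r was 0.57. Leaving out the same 2 arrays took r to 0.82 under median centring, where it was 0.88 over all 8. Those arrays had Fkbp5 at 11.8 and 20.4 and Sgk1 at 970 and 882. Taken as deviations from group means, r was 0.94, and the array with more Fkbp5 also had more Sgk1 in 3 of the 4 groups. The exception was WR, whose arrays hardly differed in Sgk1.

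Tsc22d3 did not follow them over all 8 arrays. Its r with Fkbp5 was -0.29 and with Sgk1 -0.29. Without the second DSW1200 array and the first TW array, r was 0.20 with Fkbp5 and 0.29 with Sgk1. The array with more Tsc22d3 had more Fkbp5 in 1 of the 4 groups and more Sgk1 in 2, and in 3 each under median centring. In SeW, the array with more Fkbp5 (119) and Sgk1 (1928) also had more Tsc22d3 (488). The TW array with the lower Fkbp5 (20.4) and Sgk1 (882) had the higher Tsc22d3 (789), and the DSW1200 array with the lower Fkbp5 (11.8) and Sgk1 (970) had the higher Tsc22d3 (688). Over the 8 arrays, Nr3c1 had r = -0.13 with Sgk1 and -0.38 with Fkbp5, and 0.64 and 0.24 with values as deposited. Within groups, Nr3c1 ran opposite to Sgk1, with r = -0.97 between deviations from group means, and to Fkbp5, with r = -0.85. With 2 arrays a group these deviations rest on 4 independent pairs. Under median centring r between the deviations of Nr3c1 and Sgk1 was -0.75.

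**Figure D3:**
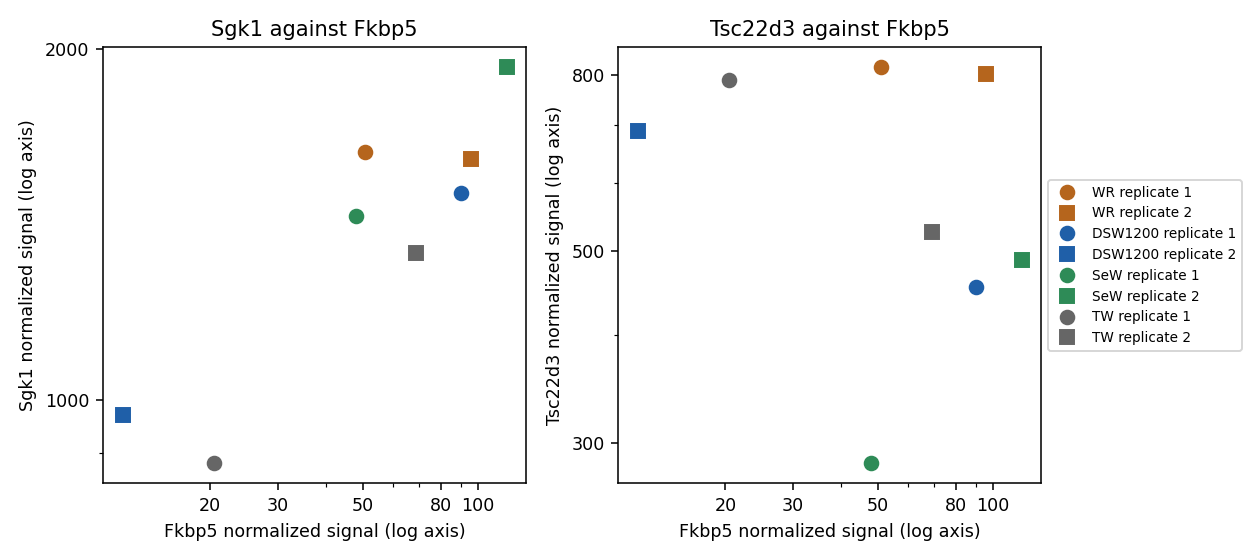
Normalized signal of Sgk1 (left) and Tsc22d3 (right) against that of Fkbp5 on the 8 arrays, all on log axes, with colours for the groups and shapes for the replicates. Sgk1 was lowest on the 2 arrays with the least Fkbp5 (11.8 and 20.4), whereas Tsc22d3 was among its 4 highest values there (688 and 789).

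A list of 30 other genes known to be induced by glucocorticoids in mammals was read beside the members, and 24 of these were tested. In WR, the mean level of 18 genes exceeded that in TW and that of 6 did not. The median log2 difference was 0.22, against -0.01 over all genes, and none passed the test. In DSW1200, 10 genes exceeded TW and 14 did not, the median was -0.10, and again none passed. In SeW, 11 exceeded TW and 13 did not, the median was -0.08, and 3 passed, 2 of them higher and 1 lower, among 0.799% and 1.11% of all genes that rose and fell.

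In SeW against TW the higher genes were Klf15 and Pck1. Klf15, a transcription factor of amino acid and glucose metabolism, gave 102 and 158 in SeW and 25.7 and 31.2 in TW, a log2 difference of 2.17 (SE 0.29, limma adjusted p = 0.0123). Pck1, the rate-limiting enzyme of gluconeogenesis, gave 1155 and 1222 in SeW and 485 and 393 in TW, a difference of 1.44 (SE 0.28, adjusted p = 0.0364). The lower gene was Mt1, a metallothionein that binds zinc and copper, with 31.3 and 43.4 in SeW and 190 and 119 in TW, a difference of -2.03 (SE 0.31, limma adjusted p = 0.0166). Each of these calls was lost when either SeW array was left out, which leaves 1 SeW array that is assumed to vary like the other groups, with adjusted p of 0.0525 and 0.13 for Klf15, 0.16 and 0.234 for Pck1, and 0.112 and 0.0954 for Mt1. With each of the 8 arrays left out in turn, the difference ran from 1.85 to 2.48 for Klf15, 1.29 to 1.59 for Pck1 and -2.36 to -1.69 for Mt1. Over all 19 settings tried, adjusted p reached 0.869 for Klf15, 0.829 for Pck1 and 0.571 for Mt1. Pck1 was also lost without the second TW array (0.112) or either WR array (0.0716 and 0.0718). Averaging the probe sets of Klf15 brought its difference to 0.23.

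In WR, Pck1 had 1109 and 966 units against 485 and 393 in TW, a difference of 1.25 (limma adjusted p = 0.373). Anxa1, which encodes the anti-inflammatory protein annexin A1, had 55.7 and 43.4 in WR and 30.5 and 23.8 in TW, a difference of 0.87 (adjusted p = 0.453). Bcl6, a transcriptional repressor, had 29.3 and 48.1 in WR and 17.8 and 17.7 in TW, a difference of 1.08 (adjusted p = 0.477). These 3 genes stood above TW without overlap, as did 18.4% of all genes. Among the 6 list genes that did not exceed TW in WR were Angptl4 and Mt1. Angptl4 had 20.4 and 16.6 in WR and 38.1 and 39.8 in TW, a difference of -1.08 (limma adjusted p = 0.453). Mt1 had 97.7 and 69.9 in WR and 190 and 119 in TW, a difference of -0.86 (limma adjusted p = 0.466). In DSW1200, Pck1 was lower than in TW, with 134 and 270 units and a difference of -1.20 (adjusted p = 0.605). Tgm2, a transglutaminase that crosslinks proteins, had 47.9 and 96.1 in DSW1200 and 25.9 and 12.3 in TW, a difference of 1.93 (adjusted p = 0.617).

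**Figure D4:**
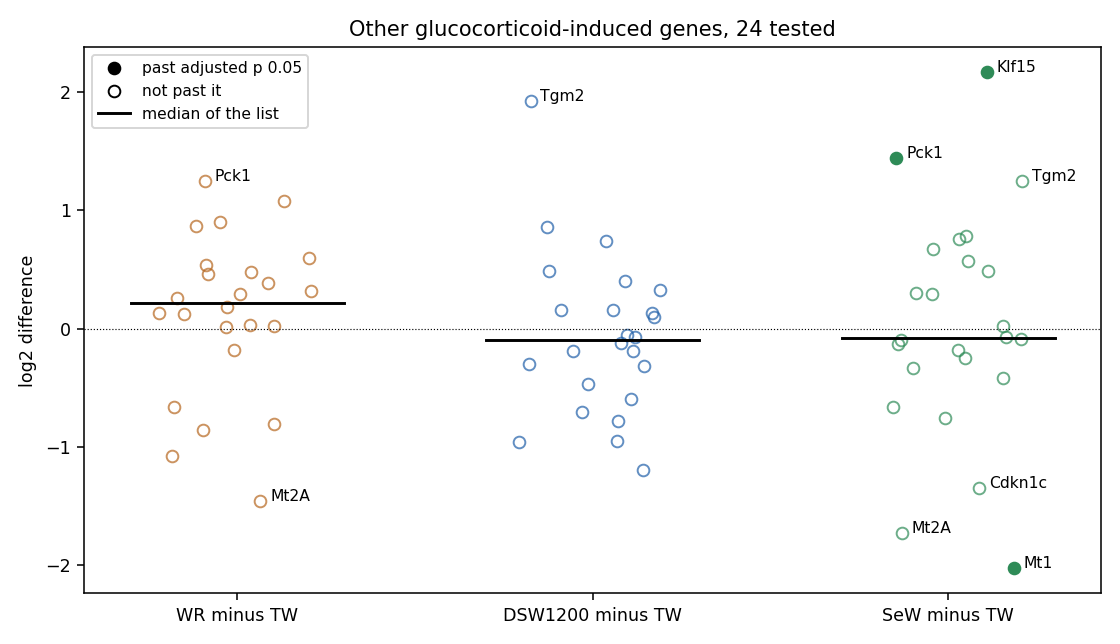
Log2 differences from TW (vertical axis) of the 24 tested genes of the other glucocorticoid-induced list in WR, DSW1200 and SeW, with filled points for genes past the adjusted threshold, open points for the rest and a line at the median. Filled points appear for SeW alone, with Klf15 at 2.17 and Pck1 at 1.44 above 0 and Mt1 at -2.03 below it, and the medians lay at 0.22, -0.10 and -0.08.

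Of the chaperones and cofactors of the receptor, 17 of 21 listed were tested. Of these 8 exceeded TW in WR (median -0.04), 6 did so in DSW1200 (median -0.10), and SeW had 9 (median 0.02). Bag1, a co-chaperone of Hsp70 that binds the receptor, was the 1 gene that passed against TW, in SeW. It had 106 and 110 units in SeW and 197 and 322 in TW, a log2 difference of -1.22 (SE 0.25, limma adjusted p = 0.0401), which was lost in 12 of 19 settings, with adjusted p up to 0.507. These included leaving out the second TW array (0.113), either WR array (0.0717 and 0.0718) and either SeW array (0.186 and 0.234), and values as deposited, where the difference was -0.29, or -1.21 relative to the median gene. Hspa4, a heat shock protein of the Hsp110 group, had 19.4 and 27.8 units in WR, 22.1 and 22.9 in DSW1200, 28.5 and 19.7 in SeW, and 8.20 and 11.1 in TW. Its differences of 1.28, 1.24 and 1.31 from the shared TW arrays did not pass (limma adjusted p = 0.398, 0.617 and 0.081).

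The genes of corticosteroid metabolism and export were mostly dim, with 6 of 18 listed genes tested. All 6 were above TW in SeW with a median of 0.50, 4 were above it in WR with a median of 0.05, and 2 were above it in DSW1200 with a median of -0.18. The 1 call against TW, in SeW, was Abcb1a, an efflux pump that exports many compounds. It had 235 and 250 units in SeW and 33.2 and 23.8 in TW, a log2 difference of 3.11 (SE 0.34, limma adjusted p = 0.00974). The call was lost in 5 of 19 settings, with adjusted p up to 0.194, among them leaving out the first SeW array (0.0558) or the second (0.0834). Nr3c2, the mineralocorticoid receptor, which also binds corticosterone, had 115 and 129 units in WR, 109 and 123 in DSW1200, 166 and 178 in SeW, and 97.7 and 110 in TW. Its SeW difference of 0.73 (SE 0.18) did not pass, at adjusted p = 0.0683. Hsd11b1, the enzyme that regenerates active corticosterone, was dim like Hsd11b2, with 3.38 and 3.34 in WR, 2.62 and 11.2 in DSW1200, 4.01 and 9.38 in SeW, and 7.24 and 13.8 in TW.

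Among the ion transporters, channels and regulators linked to Sgk1, 18 of 24 were tested and none passed against TW. In WR 14 of them exceeded TW, 9 with both arrays above both TW arrays (18.4% of all genes), and the median was 0.23. In DSW1200 9 exceeded TW with a median of 0.06, and in SeW 12 did with a median of 0.14. Nedd4, a ubiquitin ligase of the family that Sgk1 phosphorylates, had 56.4 and 78.3 units in WR and 39.4 and 47.9 in TW, a difference of 0.61 (SE 0.24, limma adjusted p = 0.498). The 8 tested genes of the osmotic response, a list that holds Sgk1 itself, were all above TW in WR, with a median of 0.25 and 4 of them without overlap (18.4% of all genes), and none passed. In DSW1200 6 of the 8 were above TW with a median of 0.24, and in SeW 5 were with a median of 0.18. Of 10 other FKBP immunophilins tested, none passed against TW, and 4 exceeded TW in WR, as did 5 in DSW1200 and 4 in SeW.

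The genes whose log2 pattern over the 8 arrays was most like each member were named as a description, out of 9258 candidates and with arrays that share groups and scaling. For Nr3c1 they were Flywch1 (r = 0.972), Smc2 (0.961) and Tbc1d31 (0.945). For Fkbp5 they were Rundc3b (0.964), Gadd45g (0.951) and Lrp6 (0.95). For Tsc22d3 they were Ccl6 (0.969), Stab1 (0.953) and Dmxl1 (0.946), of which Ccl6 averaged 28.8 units in WR, 17.1 in DSW1200, 12.6 in SeW and 20.5 in TW. For Sgk1 they were Herpud2 (0.936), Rbbp6 (0.932) and Fkbp9 (0.932), and for the dim Hsd11b2 they were Tap1 (0.93), Mvb12a (0.929) and Mtx1 (0.918). No member was among the 3 nearest of another.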

How the data were processed

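Total RNA from epithelial cells detached from proximal segments of the small intestine was hybridised to Affymetrix rat arrays, 2 per group. The authors deposited MAS5 signal intensity values per probe set on a linear scale. The MAS5 version and scaling target are not given in the sources used here, and the methods state quantile normalization and a 2-fold criterion. Intensities were quantile normalized over all 31099 probe sets, a floor of 1 was applied, and values were put on the log2 scale. Probe sets were named through GEO's platform table with RefSeq updates: 20826 had 1 symbol, 436 several and 9837 none. The brightest probe set stood for a gene, and 9258 of 14217 genes whose mean log2 exceeded the median of all probe sets (signal 6.69) were tested. Group means were fitted over all 8 arrays with limma 3.58.1 in R 4.3.3 (4 residual degrees of freedom, intensity trend, Benjamini-Hochberg), and the fit was tested on simulated data. Named genes were the members, the genes most like them, the list genes past adjusted p 0.05 against TW and some other list genes. Further list genes passed in SeW against DSW1200 or against WR, and not all of these are named. Members and lists were chosen with earlier results of these data known. The number of arrays limits the precision. Alternatives covered scaling, filter, offset, probe set choice, variance model, arrays fitted, replicate block, 2-fold criterion, beta-actin ratio and each array left out.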

Additional observations from a re-analysis of the deposited data

How the results depend on the processing

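Over 456 alternatives for the 24 member differences, 419 kept direction and side of the threshold, 30 reversed and 7 passed the test anew. Values as deposited, a scaling that moves nearly all genes, gave 3 of these reversals and 6 of the new passes. The cause of the others was not tested. As deposited, 3 members (Fkbp5, Nr3c1 and Sgk1) passed in SeW against TW and 3 in SeW against DSW1200, where 47.5% and 40.4% of all genes passed. The median gene was 0.92 and 0.84 higher in SeW in these comparisons. The 2-fold criterion picked 1 member (Fkbp5) in SeW against TW, 1 (Fkbp5) in SeW against DSW1200, 1 (Tsc22d3, also without overlap) in SeW against WR and 1 (Fkbp5) in DSW1200 against WR. The fit on only the 4 arrays compared called 1 (Tsc22d3) in SeW against WR, where it called 4.82% of all genes. Averaging probe sets reversed Nr3c1 to -0.77, -1.08 and -0.58 in WR, DSW1200 and SeW against TW and to -0.31 in DSW1200 against WR, and Fkbp5 to 0.58 in DSW1200 against TW, where the offset of 32 gave 0.01. As deposited, Tsc22d3 was 0.18 in SeW against TW and 0.34 in SeW against DSW1200, Nr3c1 was -0.28 in DSW1200 against WR, and Tsc22d4 was 0.09 in SeW against TW. With the beta-actin ratio as covariate, Tsc22d3 was 0.23 in DSW1200 against TW, Nr3c1 was -0.22 in DSW1200 against WR, and Sgk1 was -0.01 in SeW against DSW1200 and -0.30 in SeW against WR.

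With each array left out in turn, differences that turned sign ran from -0.02 to 0.69 (Nr3c1, WR against TW), -1.67 to 1.26 (Fkbp5, DSW1200 against TW), -0.51 to 0.10 (Tsc22d3, DSW1200 against TW) and -0.16 to 0.47 (Sgk1, DSW1200 against TW). In SeW against DSW1200 they ran from -0.05 to 0.39 (Nr3c1) and -0.25 to 2.68 (Fkbp5), in SeW against WR from 0 to 0.39 (Nr3c1), -0.54 to 0.77 (Fkbp5) and -0.17 to 0.25 (Sgk1), and in DSW1200 against WR from -0.19 to 0.25 (Nr3c1) and -2.56 to 0.37 (Fkbp5). Without a turn of sign, Fkbp5 ran from 0.02 to 1.77 and Tsc22d3 from 0.03 to 0.62 in WR against TW. Genes called in SeW against TW numbered 177 (74 higher, 103 lower), but 4395 as deposited (4390 higher, 5 lower), 65 under median centring (51 higher, 14 lower), 0 with the beta-actin covariate and 1 without the intensity trend. Those in WR against TW ran from 0 to 219 and those in DSW1200 against TW from 0 to 131 over all settings, the highest without the first TW array. Same-numbered arrays did not deviate together (r -0.06 to 0.04), so the numbers do not pair them. With the replicate block, 0 members were called in every comparison, and Pck1 and Bmal1 lost their calls in SeW against TW (adjusted p 0.0518 each).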

Other observations

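Of 11 core clock genes tested, several of which glucocorticoids can reset, 2 passed in SeW against TW (1.91% of all genes). The list median was -0.11 against -0.04 over all genes, but 4 genes stood above TW without overlap (22.1% of all genes) and 5 below (29.1%). In SeW against DSW1200 5 of the 11 passed (2.72% of all genes), and in SeW against WR 3 did (1.23%). Dbp and Per3 had mean levels under that tested. Dbp had 56 and 178 units in SeW and 1.08 and 1.27 in TW, and Per3 20.8 and 51.7 in SeW and 0.669 and 0.4 in TW. The hour at which tissue was taken is not given in the sources used here. Nr1d2, a repressor of the clock, had 180 and 248 units in SeW and 38.5 and 42.1 in TW, a log2 difference of 2.39 (SE 0.32, limma adjusted p = 0.0123), with adjusted p of 0.0677 and 0.13 when either SeW array was left out and up to 0.61 over all settings. Bmal1, the activator of the clock, had 26.3 and 13.2 in SeW and 51.8 and 51.8 in TW, a difference of -1.47 (SE 0.30, adjusted p = 0.0441), a call lost in 16 of 19 settings, among them each array left out in turn, with adjusted p up to 0.923. None of the 11 passed in WR or in DSW1200 against TW. The part of the clock genes in the Klf15, Pck1 and Tsc22d3 levels was not tested.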
